A study of Danio rerio with 12 samples.

Results

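The comparison concerns the step from the flank of the tailbud to the posterior presomitic mesoderm (PSM) of the zebrafish embryo. It rests on 4 of the 12 arrays of the series, 2 from the flank (position 2) and 2 from the posterior PSM (position 3), chosen by the position in their labels. All embryos were wild-type, of the AB line, raised at 23 °C to the 12-somite stage, with no treatment. The tissue was cut out by hand, so that the boundary of each piece is that of a dissection and not of a marker or a sort. The 2 flank arrays hold different sides of the body: replicate 1 is the left side and replicate 2 the right side of the tissue that flanks the tailbud. The other 8 arrays, 2 each from the center of the tailbud (position 1), the center PSM (4), the anterior PSM (5) and the last 2 formed somites (6), share the same genotype, temperature and stage, and were used for the shared spread and for the course of each gene. The sources used here do not say how many embryos were pooled.

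The tailbud holds the progenitors that lengthen the body axis. Cells that leave it as paraxial mesoderm enter the posterior PSM, where Wnt and FGF signals are high, the segmentation clock oscillates through genes of the *her* family and Delta-Notch signalling, and T-box factors and *msgn1* specify mesoderm. Retinoic acid made by the somites opposes these signals from the anterior side. BMP signalling is high on the ventral side of the tailbud, where vascular, blood, pronephric and ventral tail tissues arise.

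All 12 arrays shared a trimmed mean signal of 150, in the arbitrary units of the MAS5 algorithm. Their median signals ran from 27.3 to 68.3, with 68.3 on the left and 57.5 on the right flank array and 47.8 and 63.6 on the posterior PSM arrays. Across probe sets, which are not independent of each other, the 2 flank arrays correlated with r = 0.831, the lowest of the 6 positions, and the 2 posterior PSM arrays with r = 0.88. Each flank array correlated with posterior PSM array 1 (r = 0.845 for the left and 0.883 for the right) more closely than with the other flank array. The flank arrays differed from each other at least 2-fold in 27.2% of the 10851 tested probe sets, against 21.5% between the posterior PSM arrays and 17.2% between those of the center of the tailbud. Whether the 2 flank arrays differ by side, by dissection or by chance cannot be told apart.

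The markers of the labelled tissue were present in both positions. *msgn1*, a factor needed for paraxial mesoderm, had signals of 5637 and 4266 in the left and right flank and of 6143 and 4604 in the posterior PSM. *tbx16*, a T-box factor with the same requirement, measured 1867 and 1139 against 1477 and 1191. The flank and posterior PSM arrays overlapped for both genes, with fitted log2 differences of 0.12 ± 0.38 and -0.14 ± 0.29 (SE), and none of these was called (adjusted p = 0.957 and 0.922 in the limma fit). *tbx16l* (2728 and 2643 against 2662 and 2236) and the caudal-type factor *cdx4* (5106 and 5615 against 5290 and 3894) overlapped in the same way.

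Between the flank and the posterior PSM, 14 of 10851 probe sets (0.129%) were called at a Benjamini-Hochberg adjusted p under 0.05, 12 higher in the posterior PSM (0.111%) and 2 lower (0.0184%). The log2 values are of the signal plus 12.2, and folds on this scale understate the change of dim genes. In all 14 probe sets the 2 arrays of one position lay outside the range of the other. Over all tested probe sets this held for 17.9% higher and 18.3% lower in the posterior PSM. The calls were made on the same arrays, so the separation of the 14 adds no support to them. The unadjusted p was under 0.05 in 1031 probe sets, 562 higher (5.18%) and 469 lower (4.32%), and the adjusted p was under 0.1 in 18. The count depended on single arrays and on the variance model. It was 91 without the right flank array, 22 without the left flank array, 5 without posterior PSM array 1 and 2 without array 2, and 28 when either center tailbud array was left out. Of the 14, *wif1*, *szl* and 1 probe set without a symbol, 3 in all, were called without posterior PSM array 1, and 1, *wif1*, without array 2. It was 0 when the variances did not follow the intensity, where 1037 probe sets had an unadjusted p under 0.05. Some of the 14 were also not called when a flank array was left out. Among these were *nr2f5* without the left array, *hsp90aa1.1* without the right and *sox19a* without either. The log2 difference of *nr2f5* was 1.22 without the left flank array and 2.42 without the right. For *hsp90aa1.1* it was 5.95 and 2.53. The sign of all 14 differences was the same in every alternative that held the probe set. In pieces of tissue, fewer cells of a type and less RNA per cell cannot be told apart.

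**Figure D1:**
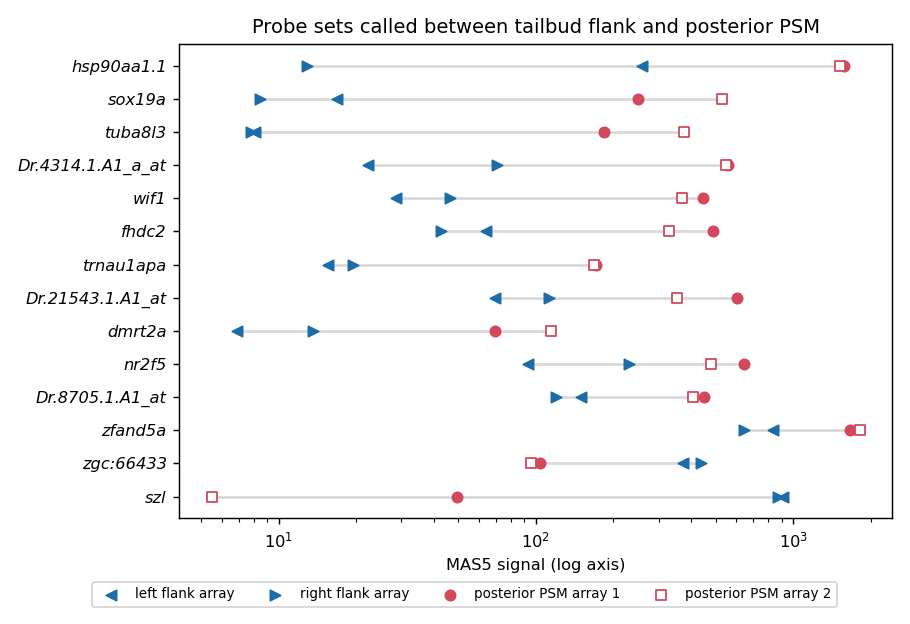
MAS5 signal (log axis) of the 14 called probe sets on the 2 flank arrays and the 2 posterior PSM arrays, 1 point per array. *szl* is at 916 and 873 in the flank against 49.5 and 5.5 in the posterior PSM, and *wif1* at 28.7 and 46.2 against 448 and 370.4.

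The larger of the 2 falls was that of *szl*, sizzled, a secreted Frizzled-related protein that protects the BMP antagonist Chordin from cleavage. Its signal was 916 in the left and 873 in the right flank, and 49.5 and 5.5 in the posterior PSM. Both flank arrays were thus high and nearly equal, and both posterior PSM arrays low. The log2 difference was -4.78 ± 0.73 (adjusted p = 0.0101), 27.4-fold lower in the posterior PSM. Without posterior PSM array 2 it was -3.88 and not called (adjusted p = 0.198). In the center of the tailbud *szl* measured 1135 and 158, and from the anterior PSM onward it did not exceed 4.8 on any array. The other fall was that of *zgc:66433*, with 372 and 437 in the flank against 103 and 95.7 in the posterior PSM (-1.90 ± 0.31, adjusted p = 0.0139, 3.72-fold lower). It measured 669 and 692 in the center of the tailbud, so that its signals stepped down over the first 3 positions without overlap. A second probe set for *zgc:66433* gave -0.88 and was not called (adjusted p = 0.771).

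*wif1*, which encodes Wnt inhibitory factor, a secreted protein that binds Wnt ligands, had the smallest adjusted p of the comparison. It measured 28.7 and 46.2 in the flank and 448 and 370.4 in the posterior PSM, a rise of 3.10 ± 0.35 on the log2 scale (8.58-fold, adjusted p = 0.000398). The center of the tailbud was as low as the flank, with 53.7 and 30, and the signal went on to 935 and 619 in the center PSM and 1088 and 544 in the anterior PSM before it measured 416 and 409 in the somites. It was called in 19 of 20 alternatives, with log2 differences from 2.39 to 3.48. The exception was the fit without the intensity trend (adjusted p = 0.126).

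Members of the list of anterior PSM and somite boundary genes that were called rose early in a longer course. *nr2f5*, a COUP-TF nuclear receptor with no known ligand, measured 93.3 in the left and 231 in the right flank and 642 and 478 in the posterior PSM (1.82 ± 0.30, 3.54-fold, adjusted p = 0.0154). The rise against the left flank array alone was 2.42 and against the right one 1.22. *nr2f5* was at 3.1 and 6.8 in the center of the tailbud and at 3802 and 3768 in the somites, so that the flank held an intermediate level.

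*dmrt2a*, a DM-domain factor known in zebrafish for somite patterning and left-right symmetry, differed from *nr2f5* in that the flank was still at the level of the center of the tailbud. The flank arrays gave 6.9 and 13.6, the center of the tailbud 11.6 and 13.5, and the posterior PSM 69.2 and 115 (2.19 ± 0.38, 4.58-fold, adjusted p = 0.021). Its signals reached 567 and 661 in the somites. On the 6 arrays of positions 1 to 3 alone, neither gene was called (adjusted p = 0.545 for *nr2f5* and 0.602 for *dmrt2a*).

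*hsp90aa1.1*, the muscle-type Hsp90 that acts with *unc45b* in myosin folding, was the largest rise. Its signal was 258 in the left but 12.9 in the right flank, and 1569 and 1518 in the posterior PSM (4.24 ± 0.75, 18.9-fold, adjusted p = 0.0223). The 2 flank arrays were far apart and the 2 posterior PSM arrays close together, and neither flank array reached the posterior PSM. Against the left flank array alone the log2 difference was 2.53 and against the right one 5.95. The center of the tailbud showed a similar gap, with 36.2 and 315, and the anterior PSM was higher again at 4425 and 4747.

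A second group of rises did not continue toward the somites. *sox19a*, a SoxB1 factor of the early neural plate, measured 16.8 and 8.5 in the flank and 249 and 528 in the posterior PSM (3.94 ± 0.75, 15.3-fold, adjusted p = 0.041). Its center tailbud arrays were at 70.4 and 847, and its somite arrays at 15.5 and 28.7, so that the flank was lower than both neighbours. *tuba8l3*, an alpha tubulin gene, was at 8.1 and 7.8 in the flank and at 184 and 375 in the posterior PSM (3.77 ± 0.70, 13.7-fold, adjusted p = 0.0314), and at 27.6 and 40.3 in the somites.

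*fhdc2*, which encodes a formin-homology domain protein, peaked in the posterior PSM itself. It measured 64.0 and 42.7 in the flank, 487 and 329 in the posterior PSM, 317 and 257 in the center PSM and 122 and 77.6 in the anterior PSM (2.67 ± 0.45, 6.38-fold, adjusted p = 0.0173 for the step from the flank). *trnau1apa*, a gene for a protein that associates with the selenocysteine tRNA, was low in the flank alone. Its flank signals were 15.6 and 19.4, whereas the 10 other arrays ran from 73.2 to 235 (2.62 ± 0.42, 6.15-fold, adjusted p = 0.0139). *zfand5a*, an AN1-type zinc finger gene and the smallest called change, measured 834 and 642 in the flank and 1668 and 1817 in the posterior PSM (1.24 ± 0.24, 2.36-fold, adjusted p = 0.041). When either posterior PSM array was left out, *sox19a*, *tuba8l3*, *fhdc2*, *trnau1apa* and *zfand5a* were not called. Without array 2 their log2 differences were 3.41, 3.28, 2.95, 2.63 and 1.18. In limma on the 4 flank and posterior PSM arrays alone, *trnau1apa* was not called either (adjusted p = 0.21).

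The remaining rises were 3 probe sets without a gene symbol, given here by the cluster in their identifiers. Dr.4314 was at 22.2 and 70.6 in the flank and at 558 and 549.6 in the posterior PSM (3.41 ± 0.43, 10.6-fold, adjusted p = 0.00107), and its course ended at 8276 and 11035 in the somites. Dr.21543 measured 69.2 and 112 against 606 and 352 (2.24 ± 0.38, adjusted p = 0.0173). Dr.8705 measured 149 and 119.6 against 449 and 408 (1.59 ± 0.31, adjusted p = 0.0477), and it was called in 7 of 19 alternatives.

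The arrays of positions 1, 4, 5 and 6 give each called probe set a course. It is a description with no test, since the flank arrays it is set against are those on which the probe sets were called. Their low values favour such counts for the rises, and their high values for the falls. Of the 12 rises, 12 had both center PSM arrays above both flank arrays, 12 both anterior PSM arrays and 11 both somite arrays, where the shares over all tested probe sets were 18.4%, 20.7% and 22%. In the center of the tailbud, 2 of the 12 had both arrays above both flank arrays and 2 both arrays below. These counts are near the shares over all tested probe sets, 18.8% above and 23.6% below. The 2 falls had both arrays below both flank arrays at positions 4, 5 and 6. Over all tested probe sets the shares below at these positions were 18.5%, 25% and 35.4%. The highest position mean lay beyond the posterior PSM in 9 of the 12 rises, a count with no share over all probe sets beside it.

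**Figure D2:**
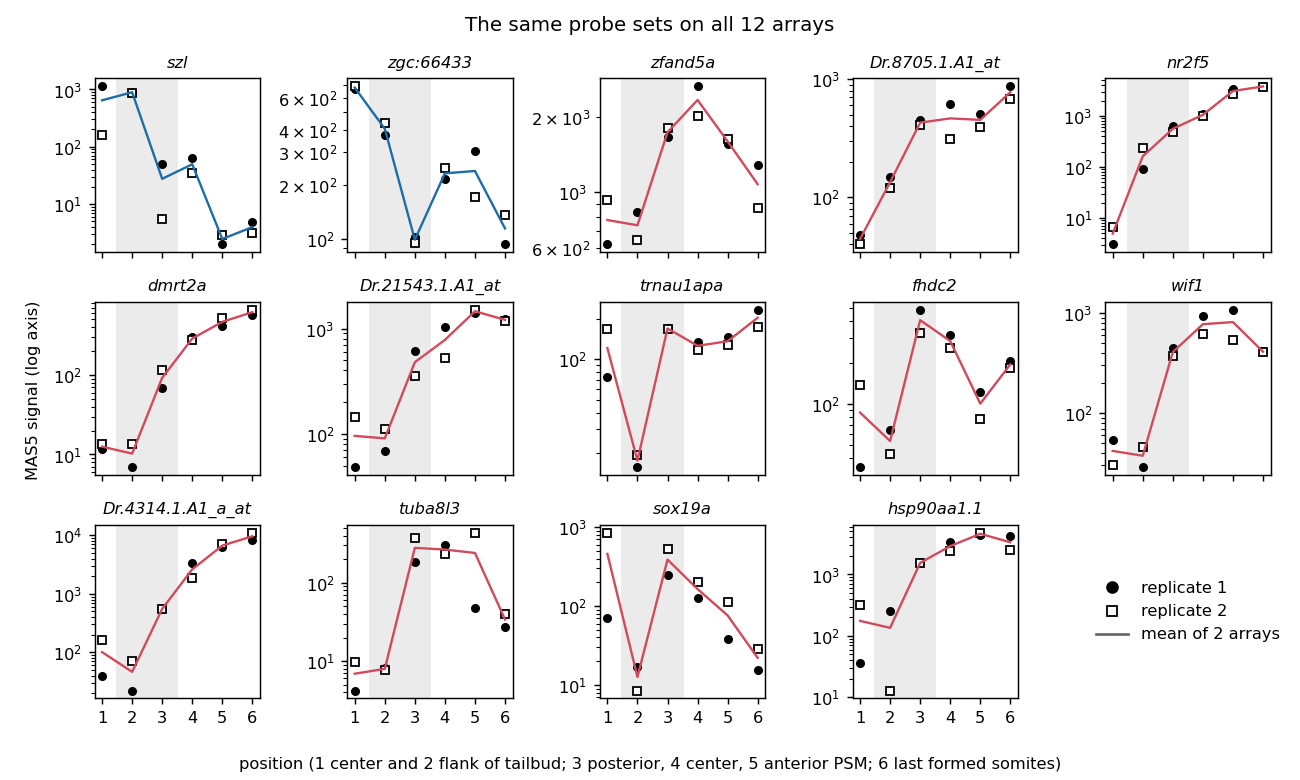
MAS5 signal (log axis) of the called probe sets at the 6 positions, 1 point per array with a line through the position means. *nr2f5* has a higher mean at every next position, *szl* is at or below 4.8 from the anterior PSM onward, and *trnau1apa* is low at the flank alone.

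Set against the center of the tailbud, the posterior PSM differed in 186 probe sets (1.71%), 138 higher (1.27%) and 48 lower (0.442%). With the mean of the epidermal list as a covariate the counts were 9 and 4, and without the intensity trend 21 and 6. That list summed to 4172 and 3556 in the center of the tailbud and to 13708 and 9857 in the posterior PSM. The part of epidermal tissue in the 186 was not tested. This comparison and that with the flank share the posterior PSM arrays, so their values stand side by side with no test between them. *nr2f5* was 5.05 higher on the log2 scale against the center (adjusted p = 9.73e-09) and 1.82 against the flank. For *wif1* the values were 2.99 (adjusted p = 6.9e-05) and 3.10, for *tuba8l3* 3.87 (0.00412) and 3.77, for *fhdc2* 2.30 (0.00902) and 2.67, and for *zfand5a* 1.18 (0.00972) and 1.24. *szl* was lower by -3.74 (adjusted p = 0.00799) and -4.78. *sox19a* and *trnau1apa* were not called against the center (0.50 and 0.55, adjusted p = 0.891 and 0.714).

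The flank was also set against the mean of its 2 neighbours. It differed from that mean in 6 probe sets (0.0553%), lower in 5 (0.0461%) and higher in 1 (0.00922%). A difference from the mean can arise from 1 neighbour alone, so the arrays of both are given. *sox19a* (-3.69 ± 0.65, adjusted p = 0.0419) and *trnau1apa* (-2.34 ± 0.37, adjusted p = 0.0419) were among those lower. So were 2 genes of RNA splicing. *srsf6a*, a serine-arginine-rich splicing factor, had signals of 16.5 and 4.4 in the flank against 125 and 149.8 in the center of the tailbud and 164 and 56.4 in the posterior PSM (-2.55 ± 0.46, adjusted p = 0.0482). *u2surp*, a protein associated with the U2 small nuclear ribonucleoprotein, had 13.3 and 10.9 in the flank against 81.6 and 155 on one side and 115 and 80.2 on the other (-2.26 ± 0.38, adjusted p = 0.0419). For both, each flank array was below all 4 neighbouring arrays.

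The last of the 5 was Dr.4314, whose flank arrays, at 22.2 and 70.6, overlapped those of the center of the tailbud, at 39.3 and 162. The probe set higher in the flank was Dr.906, with 1732 and 2524 against 545 and 266 in the center of the tailbud and 1759 and 1188 in the posterior PSM (1.47 ± 0.25, adjusted p = 0.0419). Its flank arrays overlapped those of the posterior PSM. The count of 6 rested on single arrays: it was 113 without center tailbud array 1, 1 without array 2, 118 without the right flank array, 25 without the left one, and 0 in limma when either posterior PSM array was left out. The unadjusted p was under 0.05 in 735 probe sets higher and 578 lower without posterior PSM array 1, and in 674 and 547 without array 2.

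Gene lists for the pathways and tissues of the tail are described by counts beside all tested probe sets. Over the 10851 probe sets the median log2 difference was -0.02, and 48.5% lay above 0. Probe sets whose posterior PSM arrays were both above both flank arrays, with at least a 2-fold difference, made up 5.59%, and those in the opposite direction 6.87%. The unadjusted p of the limma fit was under 0.05 in 5.18% higher and in 4.32% lower. Each gene is represented by its brightest tested probe set, and over the 6834 genes so represented the median was 0.01 and 50.9% lay above 0.

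**Figure D3:**
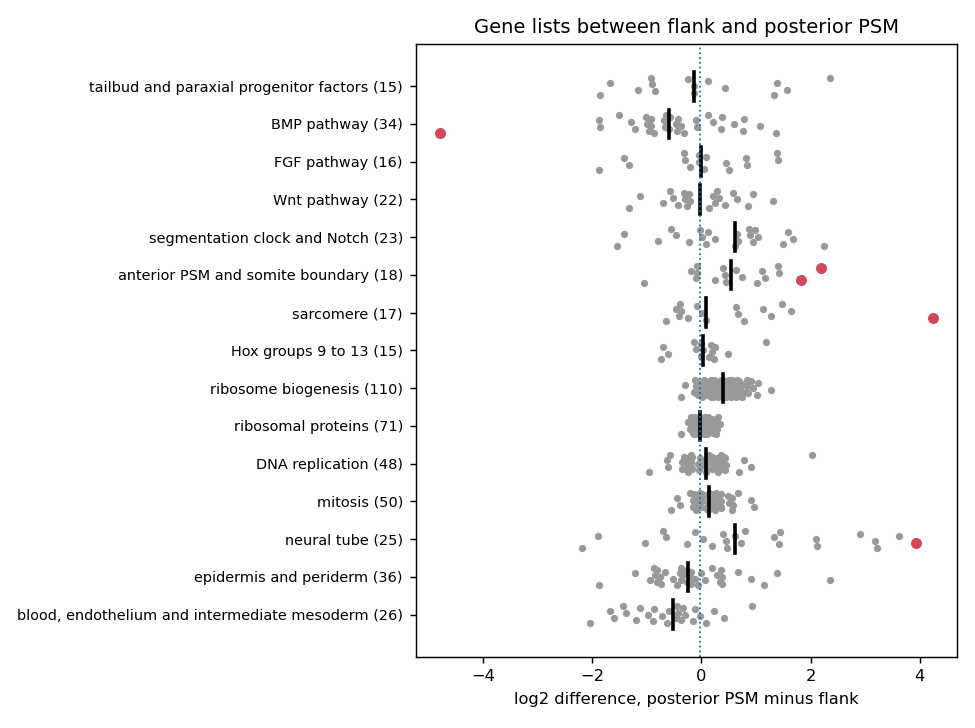
Log2 difference, posterior PSM minus flank, of each tested member of 15 gene lists, 1 point per gene, with the number of genes in parentheses, a bar at the list median and called genes in red. The dotted line marks the median of all tested probe sets, -0.02. The BMP list has a median of -0.59, the segmentation clock and Notch list 0.62 and the ribosome biogenesis list 0.39.

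Of the BMP pathway list, ligands, antagonists, receptors and targets, 1 of 34 tested members was called, *szl*, which fell. The median was -0.59, with 25 members below 0 and 9 above. The unadjusted p was under 0.05 in 8 members, all lower in the posterior PSM, against 4.32% of all tested probe sets in that direction. Among the targets, the ventral homeobox genes *vox* and *ved* measured 1734 and 1485 against 887 and 796, and 698 and 718 against 169 and 208. Both had separate groups, with log2 differences of -0.92 ± 0.27 and -1.85 ± 0.57, and neither was called (adjusted p = 0.278 and 0.295). *bambia*, a pseudoreceptor that dampens BMP signalling, had 425 in the left and 995 in the right flank and 192 and 147 in the posterior PSM (-1.88 ± 0.42, adjusted p = 0.116). With single arrays left out its difference ran from -2.48 to -1.27. *msx3*, a homeobox target, had 326 and 490.2 against 154 and 159.9 (-1.29 ± 0.50, adjusted p = 0.403). Members of the list at least 2-fold lower without overlap numbered 6, and 2 were as much higher. The shares over all tested probe sets were 6.87% and 5.59%.

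The summed signal of the BMP list, *szl* included, was 10088 and 11285 in the flank and 6372 and 6300 in the posterior PSM. In the center of the tailbud it was 12598 and 7925. Beside it stand the sums of 2 neighbouring tissues, of which no marker was called. The sclerotome and tail mesenchyme list summed to 2568 and 2630 against 1703 and 1624. That of blood, endothelium and intermediate mesoderm summed to 2272 in the left and 5558 in the right flank and to 1893 and 2151 in the posterior PSM, so that the right flank array alone was clearly above the others. The part of these tissues in the values of *szl* and the BMP list was not tested.

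Tailbud and paraxial progenitor factors had no called member among 15, a median of -0.14, and unadjusted p values under 0.05 in 2 members higher and 3 lower. *tbxta*, the brachyury gene of zebrafish tailbud and notochord, measured 803 and 539.5 in the flank and 184 and 214 in the posterior PSM. The groups were separate, 3.18-fold apart, and the difference of -1.67 ± 0.38 was not called (adjusted p = 0.142). The posterior homeobox gene *eve1* gave 486 and 409.5 against 184 and 316 (-0.85 ± 0.52, adjusted p = 0.637). Against the center of the tailbud both genes were called lower in the posterior PSM, by -2.98 (adjusted p = 0.000187) and -2.67 (0.00781).

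The segmentation clock and Notch list had a median of 0.62, with 16 of 23 members above 0, none called and unadjusted p values under 0.05 in 4 higher and 2 lower. The 2 flank arrays were far apart in the cyclic genes *her1* and *her7*. *her1* measured 330.3 in the left and 108 in the right flank against 365 and 367 in the posterior PSM (0.90 ± 0.43, adjusted p = 0.534). *her7* measured 546 and 207 against 467 and 276 (0.09 ± 0.47, adjusted p = 0.972), and its groups overlapped. The center of the tailbud showed a like gap between its arrays for *her7*, 572 and 215. *hes6*, whose product dimerises with the *her* proteins in zebrafish, was nearly level at 3090 and 2088 against 2810.0 and 2350 (0.02 ± 0.31).

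Among the Notch ligands and receptors, *dlc*, a Delta ligand, had 625 and 319.9 against 646 and 782 (0.65 ± 0.39, adjusted p = 0.63). *notch2* had 144 and 206 against 366 and 321 (0.94 ± 0.31, adjusted p = 0.316), and a second probe set of it gave 11.2 and 10 against 95.6 and 124.9 (2.42, adjusted p = 0.112). Both probe sets had separate groups and neither was called. *lfng*, a glycosyltransferase that modifies Notch, overlapped, with 111 and 390.3 against 318 and 622 (1.04 ± 0.47).

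In the list of anterior PSM and somite boundary genes, 2 of 18 were called, *nr2f5* and *dmrt2a*, both higher. The median was 0.54, with 13 members above 0. Another 5 members were at least 2-fold higher without overlap and not called, so that 7 of 18 lay past that bound, against 5.59% of all probe sets. *tbx6* measured 152 and 70.7 in the flank and 357 and 251 in the posterior PSM (1.42 ± 0.44, adjusted p = 0.296). *tcf15*, the somite factor paraxis, measured 132 and 64.2 against 290.1 and 169.9 (1.16 ± 0.35, adjusted p = 0.284). *mespaa*, a factor of the somite boundary, was at 207 in the left flank, close to the 221 and 225 of the posterior PSM, and at 23.7 in the right (1.41 ± 0.58, adjusted p = 0.433). With single arrays left out its difference ran from 0.10 to 2.71.

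In *tbx6*, *tcf15* and *mespaa* the left flank array was the higher one. All 3 were called against the center of the tailbud, with log2 differences of 3.06, 3.36 and 2.63 (adjusted p = 0.000599, 2.06e-05 and 0.0184). *myf5*, the first myogenic factor, had 371 and 217 against 807 and 529.7 (1.17 ± 0.30, adjusted p = 0.194). *myf5* and the other 7 tested myogenic factors had no called member, with 1 member at an unadjusted p under 0.05 in each direction.

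The sarcomere list had *hsp90aa1.1* as its called member among 17 and a median of 0.08, with 10 members above 0 and 7 below. The members named here all rose. *unc45b*, the myosin chaperone that works with *hsp90aa1.1*, measured 307 and 224 in the flank and 612 and 565 in the posterior PSM (1.13 ± 0.27, adjusted p = 0.162). *actc1a*, a cardiac-type actin, measured 759 and 278 against 1428 and 1521 (1.65 ± 0.69, adjusted p = 0.438). Here too the left flank array was above the right one, and both were below the posterior PSM. Both genes were called with either center tailbud array left out, in fits added after seeing the data. Neither was called with either posterior PSM array left out. With single arrays left out the differences ran from 0.91 to 1.34 for *unc45b* and from 0.95 to 2.36 for *actc1a*.

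**Figure D4:**
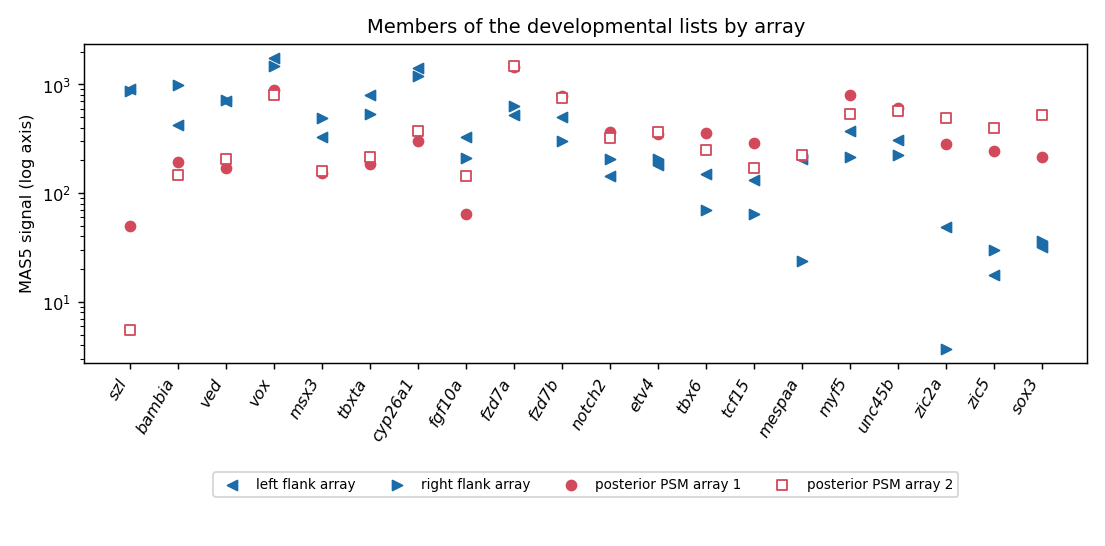
MAS5 signal (log axis) of 20 members of the developmental lists, 1 point per array, with flank arrays as triangles that point to their side and posterior PSM arrays as a circle and a square. Of the genes shown only *szl* was called. *ved*, *vox* and *msx3* are higher in both flank arrays, and *fzd7a*, *zic5* and *sox3* in both posterior PSM arrays.

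The FGF list had no called member among 16 and a median of 0.0 (unadjusted p under 0.05 in 4 higher and 2 lower). Members at least 2-fold apart without overlap were 1 higher and 3 lower, against 5.59% and 6.87% of all tested probe sets. Among the ligands, *fgf8a* measured 114 and 12.1 in the flank and 73.2 and 233 in the posterior PSM, and the groups overlapped (1.39 ± 0.59, adjusted p = 0.447). *fgf10a* measured 331 and 211 against 64.9 and 145 (-1.33 ± 0.52, adjusted p = 0.40). The FGF target *etv4* was close within each position, 184 and 205 against 351 and 362 (0.84 ± 0.28, adjusted p = 0.34), as was *etv5b*, 1663 and 1648 against 2485 and 2106 (0.46 ± 0.18, adjusted p = 0.417). The receptor-like *fgfrl1a* had 97.1 and 28.2 against 177 and 153 (1.41 ± 0.41, adjusted p = 0.271), or 0.69 to 2.13 with single arrays left out.

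The Wnt list, of which *wif1* was not a member, had none of 22 called and a median of -0.03, with an unadjusted p under 0.05 in 2 members, both higher. Members above 0 were 11 and below 0 also 11. Members at least 2-fold apart without overlap were 1 higher and 2 lower, against 5.59% and 6.87% of all tested probe sets. The members named here all rose, and those that fell are given by count only. Of the receptors, *fzd7a* measured 529 and 629 in the flank and 1454 and 1465 in the posterior PSM (1.32 ± 0.31, adjusted p = 0.156), and *fzd7b* 505 and 304 against 779.5 and 748 (0.94 ± 0.29, adjusted p = 0.287). *fzd7a* was called when either center tailbud array was left out (adjusted p = 0.00117 or 0.00144). *fzd10* was nearly level, with 1434 and 1363 against 1781 and 1585 (0.26 ± 0.24).

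In the retinoic acid list 1 of 17 was called, *nr2f5*, and the median was 0.18. *cyp26a1*, which degrades retinoic acid in the tailbud, measured 1415 and 1194 in the flank and 305 and 370.4 in the posterior PSM, 2 separate groups whose difference of -1.91 ± 0.67 was not called (adjusted p = 0.355). Against the center of the tailbud, at 3151 and 2866, the posterior PSM was lower by -3.11 (adjusted p = 0.0165). The receptor *raraa* had 371 and 375 against 616 and 451 (0.49 ± 0.32). The Hedgehog list had no called member among 10 and a median of 0.30. The unadjusted p was under 0.05 in 3 members, all higher, against 5.18% of all tested probe sets. The list had 3 members at least 2-fold higher without overlap, against 5.59% of all tested probe sets. Its transcription factors *gli3* (23.8 and 7.7 against 113 and 91.1, 2.09 ± 0.56, adjusted p = 0.225) and *gli1* (6.1 and 4.6 against 40.2 and 63.6, 1.85 ± 0.71, adjusted p = 0.392) were dim in the flank.

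Hox genes of groups 9 to 13 had no called member among 15, none with an unadjusted p under 0.05, and a median of 0.03. *hoxd11a* measured 619.5 and 748 against 870.4 and 754 (0.25 ± 0.31), and *hoxb10a* 909 and 1202 against 1304 and 1059 (0.17 ± 0.20). Groups 1 to 8 had none of 20 called and a median of 0.10, with 4 members higher and 2 lower at an unadjusted p under 0.05. *hoxb1a* (104 and 65.1 against 4.1 and 14.9, -2.18 ± 0.69, adjusted p = 0.301) and *hoxc6b* (104 and 139 against 284 and 237, 1.03 ± 0.33, adjusted p = 0.307) lay in opposite directions with separate groups.

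Among lists of growth, ribosome biogenesis stood at a median of 0.39, with 101 of 110 members above 0, against 50.9% of all genes. None was called. The unadjusted p was under 0.05 in 34 members higher and in none lower, against 5.18% and 4.32% of all tested probe sets. Members measured on the same 4 arrays are not independent of each other, so these are not separate observations. At least 2-fold higher without overlap was 1 member, against 5.59% of all tested probe sets. *wdr46*, a factor of the small ribosomal subunit processome, measured 299.5 and 455 in the flank and 801 and 725 in the posterior PSM (1.02 ± 0.25, adjusted p = 0.17). The RNA helicase *ddx51* measured 279 and 416 against 657 and 640.4 (0.91 ± 0.24, adjusted p = 0.211), and the nucleolar helicase *ddx21* 1086 and 2402 against 2936 and 2856 (0.84 ± 0.27, adjusted p = 0.301). In these 3 genes the left flank array was the lowest of the 4. With single arrays left out the differences ran from 0.73 to 1.31, from 0.63 to 1.18 and from 0.27 to 1.41.

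The mean centred log2 signal of the ribosome biogenesis list was -0.53 and -0.25 on the left and right flank arrays, 0.03 and -0.04 on the posterior PSM arrays and -0.34 and -0.26 in the center of the tailbud. Ribosomal protein genes, 71 of them, had a median of -0.02 and none with an unadjusted p under 0.05. DNA replication (median 0.09 over 48), mitosis (0.15 over 50) and oxidative phosphorylation (-0.04 over 83) had no called member, and their unadjusted counts were 2 higher and 1 lower, 3 and 0, and 2 and 3. *tk1*, thymidine kinase, was the replication gene past 2-fold, with 13.8 and 16.2 in the flank against 98.0 and 100.2 (2.03 ± 0.53, adjusted p = 0.207).

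Markers of tissues that a piece cut by hand could hold were examined on every array. For the neural tube, 1 of 25 tested markers was called, *sox19a*, and the median was 0.61, with 18 members above 0. Of the 25, 8 were at least 2-fold higher in the posterior PSM without overlap and 2 as much lower, against 5.59% and 6.87% of all tested probe sets. The unadjusted p was under 0.05 in 7 members higher and 3 lower. The members named here all rose, and those that fell are given by count only. The spinal and brain factors *zic2a* (48.4 and 3.7 against 281 and 487, 3.62 ± 0.79, adjusted p = 0.112), *zic5* (17.7 and 30.2 against 246 and 397, 3.19 ± 0.91, adjusted p = 0.26) and *sox3* (32 and 36 against 213 and 519.6, 2.91 ± 0.95, adjusted p = 0.316) were among the 8. So were the neuronal genes *elavl3* (19.5 and 25.1 against 101 and 187, 2.12 ± 0.58) and *isl1a* (20.6 and 3.8 against 144 and 274, 3.21 ± 0.85), each with adjusted p = 0.225. In all of these posterior PSM array 2 was the higher one. With single arrays left out the difference of *zic2a* ran from 2.66 to 4.59.

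The neural list summed to 2224 and 2103 in the flank, 3185 and 5200 in the posterior PSM and 2943 and 6641 in the center of the tailbud, where array 2 held 847 of *sox19a*, 563 of *zic2a* and 621 of *sox3* against 70.4, 46.6 and 26.9 on array 1. The lowest marker signal on the flank and posterior PSM arrays was 3.7. The lowest signal of any probe set in the series was 0.1, so a value above 0 does not show that a marker was present. These sums include *sox19a* itself, and the part of neural tissue in its rise was not tested. *zic2b* followed another course, from 94.3 and 90.2 in the flank over 344 and 549 to 1642 and 1178 in the anterior PSM (2.1 ± 0.53, adjusted p = 0.185). It was called with either center tailbud array left out, in fits added after seeing the data. It was not called with either posterior PSM array left out. With single arrays left out its difference ran from 1.77 to 2.43.

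**Figure D5:**
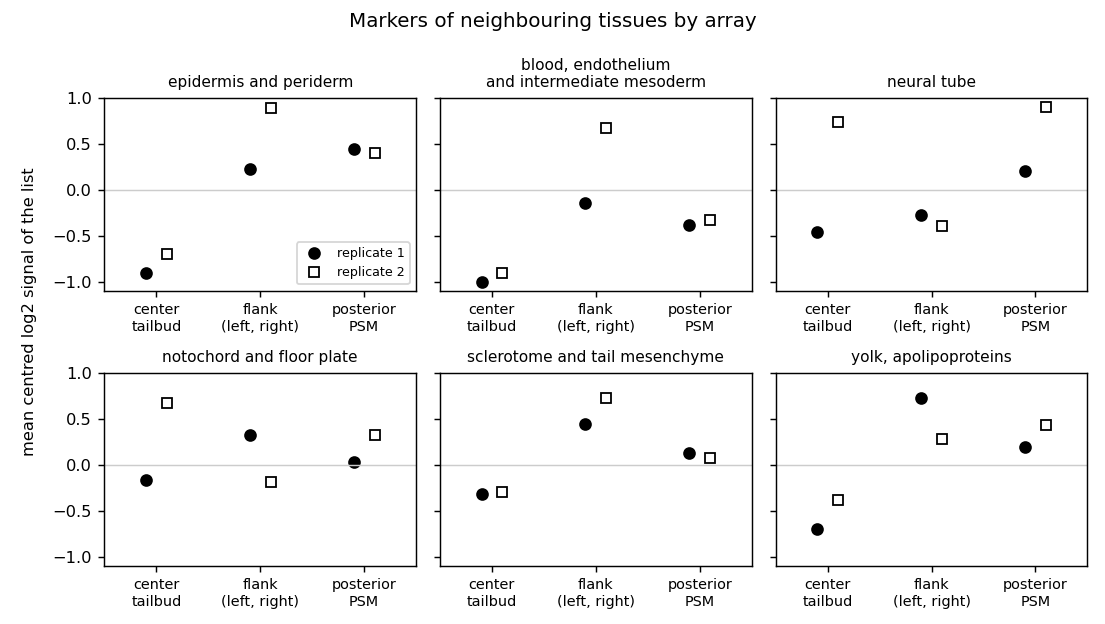
Mean centred log2 signal of 6 lists of tissue markers at positions 1 to 3, 1 point per array, with the left flank as replicate 1 and the right flank as replicate 2. The neural list is at -0.27 and -0.39 in the flank and 0.21 and 0.91 in the posterior PSM, and the epidermal list at 0.23 and 0.90 against 0.45 and 0.41.

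Epidermal and periderm markers were present in both pieces, and the posterior PSM arrays lay between the 2 flank arrays in their sum. None of 36 was called and the median was -0.24, with 12 members above 0 and 24 below. The unadjusted p was under 0.05 in 1 member in each direction. The list summed to 9635 in the left and 16337 in the right flank and to 13708 and 9857 in the posterior PSM, against 4172 and 3556 in the center of the tailbud. Against the center of the tailbud, where 166 probe sets differed from the flank (1.53%), 120 of them higher in the flank (1.11%) and 46 lower (0.424%), 11 of the 36 markers were higher in the flank. *krt4*, a keratin of the outer layer, measured 384 and 1351 against 1544 and 871 (0.67 ± 0.49, adjusted p = 0.70), and *krt8* 360.3 and 791 against 883 and 556 (0.38 ± 0.35). *epcam* (815 and 1765 against 1407 and 948, -0.06 ± 0.38), *cdh1* (764 and 1295 against 783 and 489.8, -0.67 ± 0.43) and the claudin *cldni* (1699 and 2735 against 2469 and 1606, -0.11 ± 0.40) overlapped as well. In all 5 genes the right flank array was above the left one. With the mean of this list as a covariate 13 of the 14 called probe sets were called. That mean was 0.23 and 0.90 in the flank and 0.45 and 0.41 in the posterior PSM. The 2 positions overlap in it, so the covariate could change this comparison little. The part of epidermal tissue in the called values was not tested.

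Of the blood, endothelium and intermediate mesoderm markers none of 26 was called, the median was -0.52, and 22 lay below 0, with an unadjusted p under 0.05 in 3 members, all lower. The blood factor *tal1* (59.1 and 372 against 50.6 and 30.2, -1.68 ± 0.63, adjusted p = 0.387) and the endothelial factor *fli1* (95.8 and 274 against 42.5 and 133, -0.98 ± 0.53, adjusted p = 0.595) were highest in the right flank. *epb41b*, an erythrocyte membrane gene, was high on both sides, with 83.7 and 101.1 against 10.8 and 15.7 (-2.04 ± 0.79, adjusted p = 0.402). *fli1* was at 2.6 and 3.3 in the center of the tailbud.

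Sclerotome and tail mesenchyme markers had a median of -0.43 with 9 of 13 below 0, none called and 2 with an unadjusted p under 0.05, both lower. *col1a1a*, a collagen gene of mesenchyme and skin, measured 397 and 648 against 228 and 258 (-1.03 ± 0.52, adjusted p = 0.549). Notochord and floor plate markers had a median of -0.01 over 22 and none called (2 higher and 2 lower at an unadjusted p under 0.05). Members above 0 were 11 and below 0 also 11. At least 2-fold apart without overlap were 5 higher and 3 lower, against 5.59% and 6.87% of all tested probe sets. Among the 5 was *spon1b*, a secreted spondin of the floor plate, with 8.0 and 12.4 against 126 and 92.7 (2.43 ± 0.59, adjusted p = 0.17). Its flank signals were near or below the 12.2 added before log2. No other marker of this list is named here, and those that fell are given by count only. Yolk and apolipoprotein genes had a median of -0.09 over 15, none called and 1 lower at an unadjusted p under 0.05.

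Matrix genes had a median of 0.20 over 30 and none called, with 4 higher and 3 lower at an unadjusted p under 0.05. *efemp2b*, a fibulin of elastic fibres, was the nearest to the threshold among the list members, with 123 and 50.5 in the flank, 397 and 226 in the posterior PSM and 2286 and 1770 in the somites (1.76 ± 0.36, adjusted p = 0.0691). It was called after quantile normalization (adjusted p = 0.0216 in limma) and with no filter (0.0429). With single arrays left out its difference ran from 1.21 to 2.32. The caveolin gene *cav1* lay in the opposite direction (-2.51 ± 0.56, adjusted p = 0.116, or -3.45 to -1.58 with single arrays left out). It measured 311 in the left and 76.2 in the right flank against 13.9 and 21.5. It was at 697 and 787 in the center of the tailbud, so that its signals stepped down over the first 3 positions without overlap. In the center PSM *cav1* was higher again, at 114.6 and 61.5. Immediate early genes, which respond to handling, had a median of -0.02 over 32 and none called, with 1 higher and 3 lower at an unadjusted p under 0.05. *jun* measured 37.9 in the left and 335 in the right flank against 13 and 7.3 (-2.57 ± 0.66, adjusted p = 0.207), or -3.97 to -1.18 with single arrays left out.

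The spread shared by all 6 positions decided several of these values. In a fit of the 4 flank and posterior PSM arrays alone, which leaves 2 residual degrees of freedom, 46 probe sets were called, 29 higher and 17 lower, and 12 of the 14 were among them. The differences themselves are the same in both fits. In the fit of 4 arrays limma drew the variances toward a trend over all probe sets. Its small p-values therefore do not rest on the 2 degrees of freedom alone. None of the genes named below was called in the fit of all 12 arrays, where *cyp26a1* had an adjusted p of 0.355. In the fit of 4 arrays *cyp26a1* (adjusted p = 3.71e-07), *ved* (2.35e-05), *tbxta* (0.000217), *bambia* (0.000259), *vox* (0.0156) and *msx3* (0.0457) were called lower in the posterior PSM. *fzd7a* (0.00019), *actc1a* (0.000217), *unc45b* (0.0203), *myf5* (0.0205) and *wdr46* (0.0261) were called higher, as were the neural markers *zic2b* (0.0004), *zic2a* (0.000737), *sox3* (0.00181) and *zic5* (0.00223). On the 6 arrays of positions 1 to 3, *cyp26a1* (0.00102) and *tbxta* (0.02) were called.

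Just outside the threshold, beside *efemp2b* and *cav1*, lay *trim109* (adjusted p = 0.0622), *u2surp* (0.0691), *emp2* (0.0897, 1.58 higher in the posterior PSM) and *enc3* (0.109, -1.40), and just inside it Dr.8705 (0.0477), *sox19a* and *zfand5a* (both 0.041).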

How the data were processed

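Total RNA from dissected pieces was labelled by in vitro transcription and hybridized to the Affymetrix Zebrafish array, per the labels. The deposited table gives a linear intensity for every probe set. Per the submitters' processing notes it is the MAS5 signal, of unstated version. Its trimmed mean (2% at each end) is 150 on each array. Detection calls were not used here. The 115 controls among 15617 probe sets were dropped. The 15502 kept comprise 10795 with 1 gene symbol, 135 with several and 4572 with none. Genome positions and sequences were not used here.

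The 25th percentile of all values, 12.2, was added before log2. Probe sets under the 30th percentile of the mean over the 12 arrays (4651) were left out. Position means (6) were estimated in limma 3.58.1 (R 4.3.3), using variances that follow the intensity, 6 residual and 12.8 prior degrees of freedom. Tests were two-sided, adjusted by Benjamini-Hochberg over 10851 probe sets. The number of arrays, 2 a position, limits the precision. The labels call them biological replicates but name no separate embryos, so p-values measure the spread between these samples.

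Genes named are called genes above the median signal (97.3), without placeholder symbols and with separate groups, which gave 9. The other called probe sets, and list members given as examples, are named besides, and *srsf6a*, *u2surp*, *trim109*, *emp2*, *enc3* and Dr.906 were singled out after their values were seen. The comparison, members and 28 lists were chosen with earlier results of these data known. The list members *wnt8a*, *her12* and *ripply1* were not among those tested. Replicate numbers were checked for pairing: deviations of same-numbered arrays correlated with r from -0.071 to 0.085 over the 15 pairs of positions. The numbers were not used as pairs in the main fit, and whether same-numbered arrays share embryos or a batch is not known. The procedure was tested on simulated data. Alternatives were 2 other normalizations, 2 offsets, 3 filters, 2 variance models, smaller fits, the replicate block, an epidermal covariate, 1 value per gene and each array left out, where a lone array is assumed to vary like the others. Fits without a center tailbud array were added after seeing the data.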

Additional observations from a re-analysis of the deposited data

How the results depend on the processing

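Beside the 12 probe sets called higher in the posterior PSM than in the flank, the alternatives gave 6 with a filter at the 60th percentile, 0 without the intensity trend in limma's variances (1037 in either direction at an unadjusted p under 0.05), 4 with array weights, 29 on the 4 arrays alone and 2 on the 6 arrays of positions 1 to 3. With single arrays left out the count ran from 1 to 84. Beside the 2 called lower, it was 1 with no offset, 1 with the stricter filter, 0 without the trend, 1 with array weights, 17 on 4 arrays, 5 on 6 arrays, 1 with 1 value per gene, and 1 to 7 with arrays left out. Of the 14 called, 14 were called with no filter, 13 after quantile normalization, 12 after median centring, 10 with an offset at the median and 9 with no offset. Fewer were called with the filter at the 60th percentile (7 of the 13 that it held) and with array weights (5). On the 6 arrays of positions 1 to 3 it was 4, and without the intensity trend 0. The replicate block gave 13 higher and 2 lower, with the 14 among them and *efemp2b* besides (adjusted p = 0.0149). The labels tie same-numbered arrays by number alone, and in the flank that number is also the side. The block is therefore not read as a paired analysis of a shared embryo or batch. The median of all probe sets moved from -0.02 to 0.02 after quantile normalization and 0.07 after median centring.

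For the posterior PSM against the center of the tailbud (138 higher, 48 lower), the higher count was 86 after median centring, 21 without the trend, 9 with the epidermal covariate, 85 with 1 value per gene and 32 to 175 with arrays left out. The lower count was 6 without the trend, 4 with the covariate, 26 with 1 value per gene and 18 to 58 with arrays left out. For the flank against its neighbours (1 higher, 5 lower), the higher count was 3 after quantile normalization, 0 after median centring, 2 with no offset, 3 with an offset at the median, 15 with no filter, 0 with the stricter filter, 2 without the trend, 0 with array weights, 7 on 6 arrays, 8 with the replicate block, 0 with the covariate, 0 with 1 value per gene and 0 to 56 with arrays left out. The lower count was 2 with an offset at the median, 10 with no filter, 1 with the stricter filter, 1 without the trend, 0 with array weights, 9 with the replicate block, 0 with the covariate, 1 with 1 value per gene and 0 to 113 with arrays left out. At an unadjusted p under 0.05 limma gave 440 higher and 408 lower with array weights, 311 and 488 with the covariate, 415 and 1109 after median centring, 347 and 475 with the stricter filter, and 449 and 459 with 1 value per gene.

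None of the called values changed sign. Among 61 uncalled list members, 9 changed sign somewhere, where they were not called: *hes6* was -0.04 after quantile normalization and -0.04 with the covariate, *epcam* 0.04 after median centring and 0.06 with the covariate, *cldni* 0.02 with the covariate, and with 1 value per gene *msgn1* was -0.40 and *hoxb10a* -0.31. With arrays left out *tbx16* ran from -0.49 to 0.22, *krt4* from -0.22 to 1.56, *krt8* from -0.17 to 0.94, *hoxb10a* from -0.03 to 0.37, *msgn1* from -0.09 to 0.32, *her7* from -0.59 to 0.76, *hes6* from -0.26 to 0.30, *epcam* from -0.61 to 0.50 and *cldni* from -0.46 to 0.23. Of 1210 values of these members under alternatives, 42 passed the threshold, in the same direction. Of 252 list medians under alternatives, 27 moved by more than the spread between arrays. With 2 arrays a position, 1 from each side in the flank, small differences were not detectable, and low signals have no detection call behind them. Of simulated differences of 2 on the log2 scale 61% were called, so larger differences can be missed as well.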

Other observations

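The 2 flank arrays, left and right, differed in the mean centred log2 signal of several lists, with 1 array a side and no test. Each gap is given with that between posterior PSM arrays 2 and 1. Right minus left, it was 0.82 for blood, endothelium and intermediate mesoderm (0.06 in the posterior PSM), 0.67 for epidermis and periderm (-0.04), 0.63 for the retinoic acid list (0.09) and 0.33 for neural crest (-0.22). It was -0.74 for endoderm and hypochord, 5 genes (0.93), -0.51 for notochord and floor plate (0.30), -0.50 for tailbud and paraxial progenitor factors (0.16), -0.50 for sarcomere genes (0.25), -0.44 for yolk and apolipoprotein genes (0.24) and -0.36 for Hedgehog genes (0.07). The other lists had gaps between the flank arrays of 0.28 or less in either direction. Among them the posterior PSM arrays were further apart than the flank arrays for the neural tube (0.70 against -0.12), segmentation clock and Notch (0.34 against 0.02), FGF (0.33 against -0.02), Wnt (0.29 against -0.13), Hox groups 9 to 13 (-0.20 against -0.11) and matrix genes (0.08 against 0.07).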
